A study of Sus scrofa with 18 samples.

Results

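Alveolar macrophages of pigs kept for 24 hours with Bacillus subtilis were compared with those kept for 24 hours with Enterococcus faecium. The comparison takes the 6 libraries that the labels give to either bacterium without poly I:C, 3 for each species, of 18 libraries in all. The study measured messenger RNA by sequencing in macrophages taken from the lungs of healthy Danish Landrace-Yorkshire pigs and exposed ex vivo to 6 treatments. Besides the bacteria alone, these were no treatment (control), poly I:C, a synthetic double-stranded RNA, and poly I:C with either bacterium, each with 3 libraries titled Pig 1 to Pig 3. The cells of the B. subtilis group received B. subtilis and nothing else, those of the E. faecium group E. faecium and nothing else, and all groups shared the lung source and the culture. Neither strain, dose nor viability of the bacteria is stated by the labels, so a difference between the species cannot be told apart from a difference in dose or viability. The titles name 1 pig per library. Unless stated otherwise, p-values rest on the spread between libraries of one treatment, estimated over all 18 libraries. Where a block of library sets, described below, is used, they rest on the spread left after it.

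Alveolar macrophages are the resident phagocytes of the airspaces. They meet Gram-positive bacteria through TLR2 and its co-receptor CD14, which sense lipoproteins of the cell wall, through the cytosolic receptor NOD2, which senses wall fragments, and through TLR7 and TLR8, which sense RNA inside endosomes. These receptors lead to NF-kB and AP-1 transcription factors, to the release of IL-1, TNF, neutrophil chemokines and IL-12 family cytokines, and to inhibitors such as SOCS3 and NFKBIA that limit the response.

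The libraries held 16444981 to 26333455 counts in the E. faecium group and 17130850 to 20961735 in the B. subtilis group, of which mitochondrial genes took 0.485 to 1.34%. Their replicate numbers did not all match libraries that varied together. Deviations from the treatment means correlated at -0.137 for B. subtilis library 1 with E. faecium library 1 and at -0.344 for the libraries numbered 2, across genes, which are not independent replicates. Over all 18 libraries, the grouping into 3 sets of 1 library per treatment with the highest mean correlation (0.616, against 0.451 for the next grouping and 0.0226 for the numbers) was the same from odd and from even chromosomes. Set A held B. subtilis library 3 and E. faecium library 3, set B held B. subtilis 1 and E. faecium 2, and set C held B. subtilis 2 and E. faecium 1. Their deviations correlated at 0.735, 0.642 and 0.646. The labels do not name these sets, and they were found from the same libraries that are tested below. Values are therefore given in the order of sets A, B and C, and counts of genes are given without the sets and with them as a block. They are in CPM, a gene's counts relative to the library total, with totals scaled by TMM, a correction for a few abundant genes.

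E. faecium library 2 stood apart from the other libraries of its treatment. Within set B, 16 of 11485 genes differed by more than 1 log2 unit between E. faecium and control, against 253 in set A and 702 in set C. The mean chi-square per gene between these libraries was 14.6 and the median 2.57, against means of 55.2 and 132 in sets A and C. The labels put this culture with E. faecium, and whether it was exposed as labelled was not tested, which touches every E. faecium value of set B. B. subtilis differed from control by that much at 1017, 1164 and 1446 genes in sets A, B and C. B. subtilis differed from E. faecium at 476 genes in set A, 1118 in set B and 492 in set C, so that set B gave the largest contrast between the bacteria. List counts that change without set B are given without it as well.

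**Figure D1:**
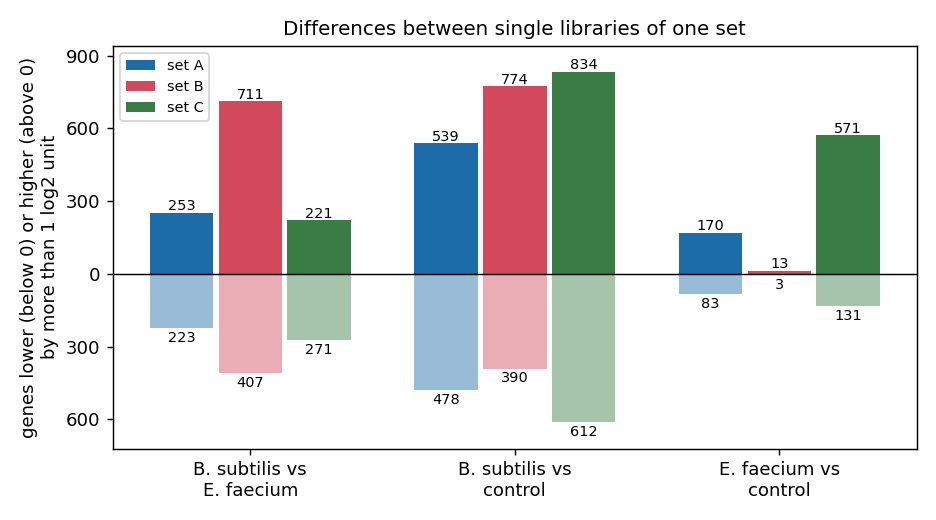
Number of genes (of 11485 with a mean of at least 1 CPM) that differed by more than 1 log2 unit between 2 libraries of a set, with genes higher in the first-named treatment above 0 and lower ones below, for sets A (blue), B (red) and C (green). E. faecium and control differed at 16 genes in set B, against 253 and 702 in sets A and C.

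Between the 2 bacteria, 24 genes passed an adjusted p of 0.05 in edgeR's quasi-likelihood test fitted to all 18 libraries without a block, which is 0.177% of the 13592 genes tested. Of these, 13 were higher with B. subtilis (0.0956%) and 11 lower (0.0809%), with log2 fold changes from -2.77 to 4.02. In all 24 the B. subtilis and E. faecium libraries did not overlap, against 15.9% of all genes (7.6% higher and 8.28% lower). The 24 were picked by p from these same libraries, which favours a lack of overlap. Groups that do not overlap must differ in the same direction in every set. The same direction of all 24 in the 3 sets, against 49.2% of all genes, is therefore no further result. All 24 also passed DESeq2, which called 276 of the 13592 genes, and 22 passed limma-voom, which called 52. With the sets as a block, edgeR called 927 genes (6.82%), 419 higher (3.08%) and 508 lower (3.74%), and these included the 24. In that fit 2735 of the 13592 genes had an unadjusted p under 0.05, both directions together. Leaving out set B, the block gave 546 genes (4.02%; 1.87% higher and 2.15% lower), again with all 24 among them. The count without a block leaned on each library. It was 4 without B. subtilis library 1, 1 without library 2 and 15 without library 3, and 88, 1 and 5 without E. faecium libraries 1, 2 and 3. SULF2 passed in each of these 6 fits. A fit to the 6 libraries alone without a block called 0 genes, with 1327 at an unadjusted p under 0.05, and with the block it called 1468.

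Among the cytokine and signalling genes, EBI3, which encodes a chain shared by IL-27 and IL-35, rose with B. subtilis. EBI3 (gene ID 100522599, chromosome 2, 74530728 to 74540433; positions are those of Sscrofa11.1 in RefSeq) had 30.5, 74.6 and 96.2 CPM with B. subtilis and 3.05, 6.50 and 7.96 CPM with E. faecium. Every B. subtilis library lay above every E. faecium library, and the latter lay close to the control range of 2.78 to 5.21 CPM. The log2 fold change was 3.52 ± 0.54 (SE, n = 3 per group here and throughout) with an edgeR adjusted p of 0.014. An unnamed gene of the chemokine cluster on chromosome 8, LOC100525396 (gene ID 100525396, 70054796 to 70057033), had 9851, 10151 and 12079.5 CPM with B. subtilis and 775, 442 and 1328 CPM with E. faecium. The groups were far apart, with the E. faecium libraries above control in sets A and C and below it in set B (control 204, 519 and 124 CPM). Its log2 fold change was 3.66 ± 0.60 (edgeR adjusted p = 0.0195). It lies between the CXC chemokine genes AMCF-II and CXCL2, 122 kb from the start of CXCL8, and reads of near-identical copies there may have been split.

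The transcription factor BATF3, an AP-1 family member needed in mice for a class of dendritic cells, had 73.6, 65.6 and 96.2 CPM with B. subtilis and 11.07, 5.37 and 18.6 CPM with E. faecium (gene ID 100621683, chromosome 9, 130699092 to 130711719). It rose by 2.75 ± 0.51 on the log2 scale (edgeR adjusted p = 0.0413). VDR, the nuclear receptor for vitamin D (gene ID 396628, chromosome 5, 78205807 to 78266505), had 95.3, 135 and 153 CPM against 26.4, 27.1 and 49.1 CPM, a log2 fold change of 1.90 ± 0.30 (edgeR adjusted p = 0.015). In VDR too the groups did not overlap, and E. faecium stood above control (14.6, 20.7 and 15.1 CPM) in every set. SH2D1B, an adaptor of SLAM-family receptors (gene ID 100620669, chromosome 4, 88097534 to 88129792), had 72.0, 44.1 and 78.2 CPM against 16.9, 11.2 and 24.8 CPM, a log2 fold change of 1.88 ± 0.29. GPR132, a receptor linked to lysophospholipids and acid (gene ID 100523318, chromosome not known), had 84.5, 162 and 116 CPM against 26.6, 19.1 and 47.6 CPM, a log2 fold change of 1.96 ± 0.36. MCEMP1, a membrane protein of mast cells and lung myeloid cells (gene ID 100511550, chromosome 2, 71473384 to 71476126), had 188, 188 and 254 CPM against 51.1, 28.9 and 42.5 CPM, a log2 fold change of 2.36 ± 0.34. GJA1, a connexin of gap junctions (gene ID 100518636, chromosome 1, 40988818 to 41002129), had 28.7, 28.9 and 44.96 CPM against 5.94, 7.49 and 6.93 CPM, a log2 fold change of 2.33 ± 0.36. It was the exception among the 24, in that its E. faecium mean did not lie between control and B. subtilis.

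The other risers were PABPC1, FAM177A1, ILDR1, MAMLD1 and a transcript of the table that has no gene ID or position. PABPC1, the main cytoplasmic poly(A)-binding protein (gene ID 100153958, chromosome 4, 36137644 to 36228075), had 1874, 2225 and 2243 CPM against 849, 696 and 984 CPM, a log2 fold change of 1.33 ± 0.20; it has close copies in mammalian genomes, so its level is uncertain. MAMLD1, a mastermind-like protein (gene ID 100517073, chromosome X, 122120275 to 122233692), had the highest log2 fold change, 4.02 ± 0.67, on low levels of 1.90, 2.20 and 4.28 CPM against 0.218, 0.0275 and 0.295 CPM. Its E. faecium libraries held only 1 to 6 counts, so the fold is loosely set. FAM177A1 rose by 1.10 ± 0.20, ILDR1, a receptor-like protein of cell junctions, by 1.70 ± 0.31, and the transcript with no gene ID by 2.53 ± 0.40, all on the log2 scale.

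Of the 11 genes that fell, TLR8 and TLR7 carried the largest and the fourth-largest change. TLR8 (gene ID 397384, chromosome X, 9551284 to 9616762) had 7.37, 10.4 and 3.39 CPM with B. subtilis and 27.3, 83.1 and 33.7 CPM with E. faecium. No B. subtilis library reached the lowest E. faecium library, and control lay at 55.2 to 73.6 CPM. The log2 fold change was -2.77 ± 0.43 (edgeR adjusted p = 0.014). TLR7 (gene ID 100037296, chromosome X, 9573178 to 9576987) had 8.10, 11.9 and 6.18 CPM against 24.1, 51.6 and 22.7 CPM, a log2 fold change of -1.91 ± 0.35 (edgeR adjusted p = 0.0393). In both genes E. faecium exceeded control in set B alone and stood below it in sets A and C. The annotated span of TLR7 lies inside that of TLR8, and no source used here says whether the counting used strand, so reads of the overlap cannot be told apart.

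SULF2, an enzyme that trims sulfate from heparan sulfate outside the cell, had the lowest p of all genes. SULF2 (gene ID 100152351, chromosome 17, 49663721 to 49805118) had 11.6, 12.7 and 9.44 CPM with B. subtilis, 33.7, 36.3 and 31.1 CPM with E. faecium and 39.9, 32.6 and 34.3 CPM in control. The E. faecium and control libraries overlapped, and the B. subtilis libraries stood well below both, with a log2 fold change of -1.58 ± 0.16 (edgeR adjusted p = 0.000689). SLCO2B1, an organic anion transporter (gene ID 102160472, chromosome 9, 9433978 to 9474248), had 19.3, 22.8 and 16.4 CPM against 63.6, 119 and 50.6 CPM, a log2 fold change of -1.99 ± 0.30. TYRO3, a receptor kinase of the family that takes up dying cells (gene ID 100515870, chromosome 1, 129811540 to 129829395), had 13.5, 7.71 and 11.2 CPM against 29.0, 29.9 and 24.4 CPM, a log2 fold change of -1.36 ± 0.25. FGFRL1, a decoy-like fibroblast growth factor receptor without a kinase (gene ID 110262030, chromosome 8, 365367 to 378384), had 15.5, 9.81 and 12.7 CPM against 34.0, 28.9 and 33.1 CPM, a log2 fold change of -1.34 ± 0.22. The other fallers changed by -1.97 ± 0.29 (FAM105A), -1.77 ± 0.34 (SAMD4A, an RNA-binding repressor), -1.66 ± 0.25 (TTYH2), -1.61 ± 0.28 (SLC26A11, an anion transporter) and -1.51 ± 0.27 (RAB11FIP4, an effector of the recycling GTPase RAB11).

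**Figure D2:**
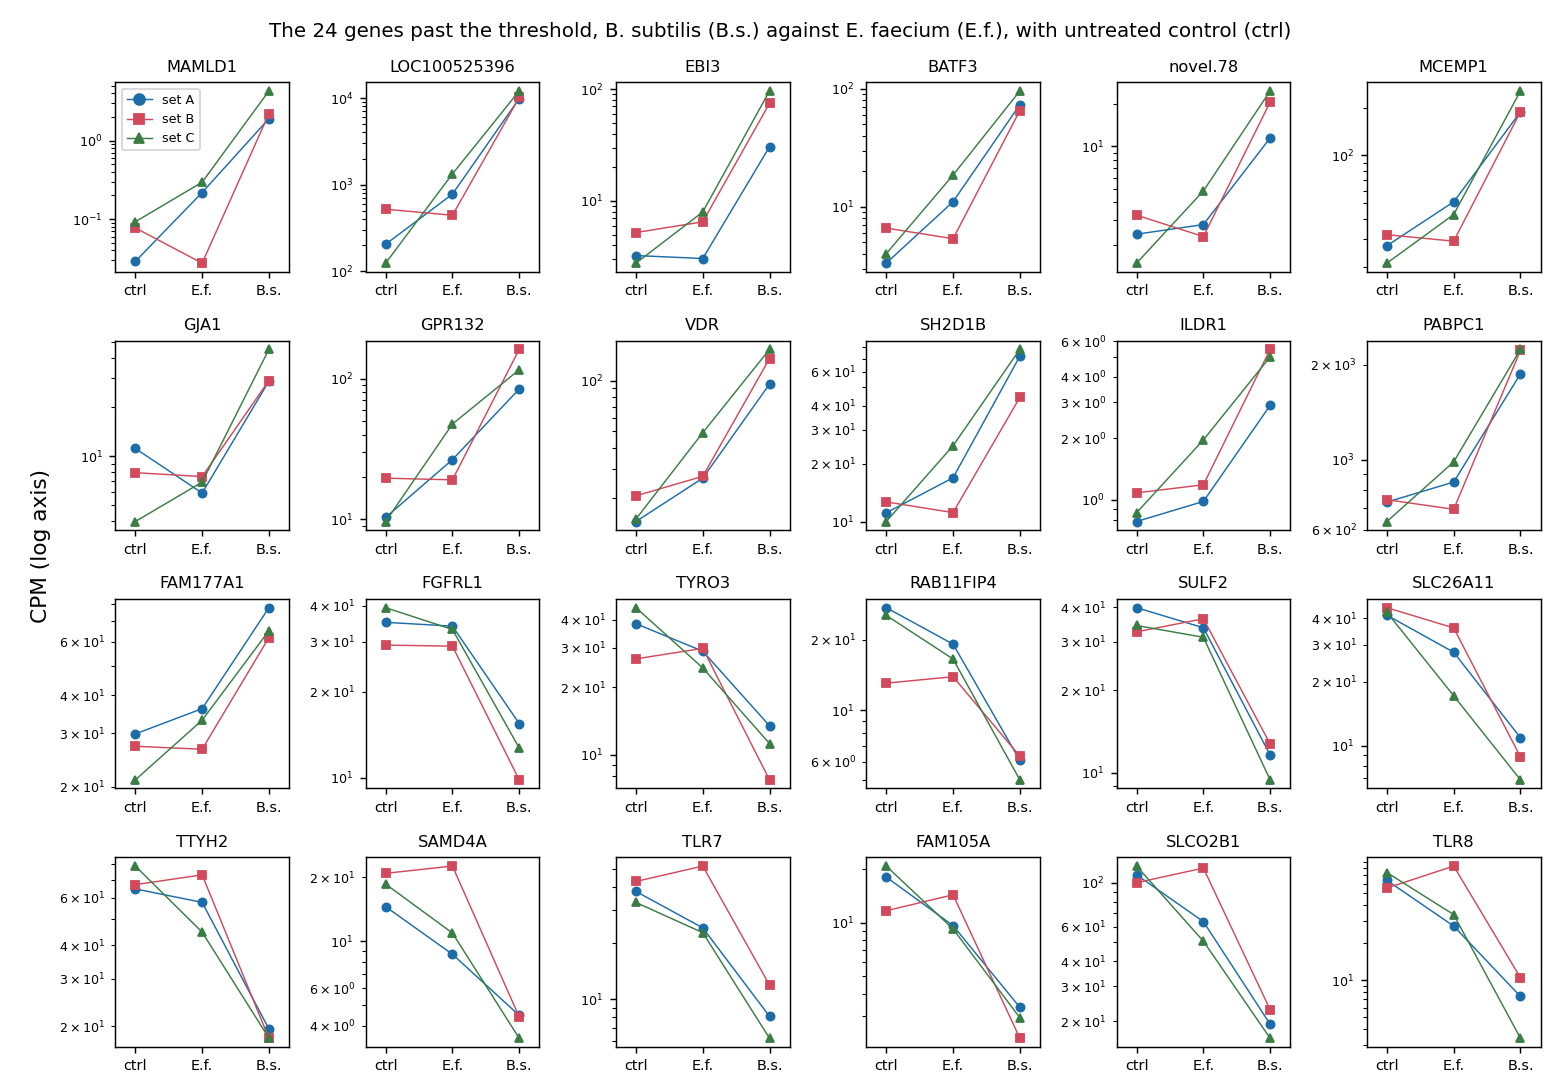
CPM (log axis) of the 24 genes past the threshold in control (ctrl), E. faecium (E.f.) and B. subtilis (B.s.), with 1 point per library and lines joining the libraries of sets A (blue circles), B (red squares) and C (green triangles). The B. subtilis libraries do not overlap the E. faecium libraries in any panel, as for TLR8 with 3.39 to 10.4 against 27.3 to 83.1 CPM.

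Among the proinflammatory cytokines EBI3 alone passed without the block. With the set block, 11 of 29 proinflammatory cytokines were higher with B. subtilis (background 3.08%) and 0 lower (background 3.74%). In the lower direction 0 had an unadjusted p under 0.05. DESeq2 called 5 of the 29 and limma-voom 3, against 276 and 52 of the 13592 genes tested. The median log2 fold change of the 29 was 1.58, against -0.01 over all genes. Within sets A, B and C the median log2 difference of the 29 was 0.84, 2.47 and 0.23, so that set B gave the largest. Without set B the block gave 10 higher and 1 lower (background 1.87% and 2.15%). IL1B had 6910.5, 12650.1 and 14056 CPM with B. subtilis, 537, 166 and 2268 CPM with E. faecium, and 46.3, 226 and 19.7 CPM in control. The bacteria did not overlap, but E. faecium ranged from below control in set B to far above it in set C, and the log2 fold change of 3.50 ± 0.94 had an edgeR adjusted p of 0.159 without and 0.0207 with the block. Pigs carry a near-identical copy of IL1B, and reads may have been split between them. IL1A had 4826, 5706 and 5837 CPM against 859, 346 and 1879.9 CPM (log2 fold change 2.41 ± 0.63, adjusted p 0.151 without and 0.0234 with the block).

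IL23A, the chain particular to IL-23, had 723, 977 and 1114 CPM with B. subtilis and 41.7, 2.45 and 157 CPM with E. faecium. In set B the E. faecium value equalled that of control (2.47 CPM), and in the other sets it lay well above control (2.20 and 0.710 CPM). The log2 fold change was 3.81 ± 0.91 (edgeR adjusted p 0.108 without and 0.0156 with the block, 0.00300 with the block and without set B). CSF3, the growth factor of neutrophils, had 927, 2047 and 1571 CPM against 64.7, 13.9 and 156 CPM, and CSF2, the growth factor of macrophages and granulocytes, 6.92, 117 and 44.2 CPM against 0.818, 1.27 and 5.51 CPM. Their log2 fold changes were 4.27 ± 0.99 and 4.48 ± 1.59, with edgeR adjusted p of 0.0126 and 0.0125 with the block. IL18, IL33, OSM, IL12A and IL19 were the other members past the threshold with the block, and in IL18, OSM and IL12A the libraries of the bacteria overlapped across sets. IL12A and IL33 were low throughout, at most 7.07 and 7.08 CPM, and IL19 with its neighbour IL20 reached 21.5 and 7.17 CPM in the B. subtilis library of set B but 0.223 CPM each in set A.

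TNF, IL12B, IL6 and IL10 did not pass with or without the block. TNF had 637, 1378 and 1698 CPM with B. subtilis and 356, 25.98 and 1972 CPM with E. faecium. The groups overlapped, with the highest library of all in E. faecium, and the log2 difference was 0.66 ± 0.84 (edgeR adjusted p 0.995 without and 0.517 with the block). IL12B had 0.279, 0.830 and 9.34 CPM against 2.67, 0.0551 and 45.5 CPM, which put E. faecium above B. subtilis in sets A and C and below it in set B. In the proinflammatory cytokine list IL12B alone was lower with B. subtilis when set B was left out of the block. Its edgeR adjusted p was then 0.0172, against 0.405 with all sets. IFNB1 followed the same order at low level, with 0.112, 0.781 and 0.418 CPM against 0.600, 0.220 and 3.64 CPM, and its adjusted p was 0.305 with the block and 0.0178 without set B. IL6 had 1.01, 14.2 and 2.51 CPM against 0.218, 0.248 and 1.82 CPM and IL10 1.79, 8.15 and 2.79 CPM against 1.53, 2.45 and 2.26 CPM, with adjusted p of 0.0789 and 0.208 with the block. In the IL-12 family list, 4 of 10 members (EBI3, IL23A, IL12A and the receptor IL23R) were higher with the block (background 3.08%). With it 0 were lower (background 3.74%), with 1 at an unadjusted p under 0.05 in that direction. Without set B these counts were 3 and 1 (background 1.87% and 2.15%).

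Neutrophil chemokines and CCL20 were higher in every set. With the block 4 of 21 chemokines were higher (background 3.08%) and 0 lower (background 3.74%). In the lower direction 0 had an unadjusted p under 0.05. Without set B 5 were higher and 0 lower (background 1.87% and 2.15%). DESeq2 called 4 of the 21 and limma-voom 2, against 276 and 52 of the 13592 genes tested. CXCL8, the main neutrophil attractant, had 31486, 30151 and 35708 CPM with B. subtilis, 9321, 4331 and 16416 CPM with E. faecium and 3022, 5318 and 2733 CPM in control. The bacteria did not overlap, and the log2 fold change was 1.69 ± 0.45 (edgeR adjusted p 0.158 without and 0.0222 with the block). CXCL2 had 4742, 10569 and 12169 CPM against 483, 346 and 1939.5 CPM, a log2 fold change of 3.31 ± 0.76 (adjusted p 0.104 and 0.00263). AMCF-II, a pig CXC chemokine first found as a product of alveolar macrophages, had 5711, 11959 and 12554 CPM against 1091, 1042 and 3373 CPM. CCL20, which attracts cells bearing CCR6, had 718, 502 and 359.7 CPM against 43.4, 3.61 and 66.1 CPM, a log2 fold change of 3.81 ± 0.89 (adjusted p 0.104 and 0.0163). CXCL10, an interferon-driven attractant of T cells, differed from these. It had 308, 480.1 and 589 CPM with B. subtilis and 436, 217 and 939 CPM with E. faecium, overlapping groups with a log2 difference of -0.21 ± 0.45 (adjusted p 1 and 0.970). PPBP, which lies inside the same cluster as CXCL8, had a log2 difference of 0.67 ± 0.30 (adjusted p 0.518 without and 0.165 with the block).

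In the NF-kB pathway and its inhibitors, 5 of 30 were higher with the block (background 3.08%), NFKB2, TNIP3, IKBKE, BCL3 and IER3. With it 0 were lower (background 3.74%), with 0 at an unadjusted p under 0.05 in that direction. Without set B 3 were higher (background 1.87%). The median log2 fold change of the 30 was 0.38. Within sets A, B and C the median log2 difference was 0.26, 1.01 and 0.09. IKBKE, an IkB kinase-like enzyme, had 126, 135 and 133 CPM with B. subtilis and 70.4, 56.2 and 93.4 CPM with E. faecium, and TNIP3, an inhibitor of NF-kB, had 50.5, 68.0 and 63.5 CPM against 16.1, 8.57 and 27.6 CPM. The edgeR adjusted p of these were 0.00443 and 0.00801 with the block, and 0.066 and 0.0696 without it. NFKBIA, the classic inhibitor, had 949.6, 947 and 841 CPM against 564, 164 and 519 CPM and missed the threshold with the block (adjusted p = 0.0536), although the groups did not overlap. Among regulatory genes 5 of 30 were higher with the block (background 3.08%) and 1 lower (PDCD1LG2), a share near the background of 3.74%. Without set B these counts were 5 and 2 (background 1.87% and 2.15%). SOCS3, which blocks cytokine receptor signalling, had 469.7, 916 and 918 CPM against 123, 90.4 and 385 CPM, and ZC3H12A, an RNase that degrades cytokine messengers, had 242, 234 and 265 CPM against 81.5, 30.2 and 117 CPM. Their adjusted p were 0.0106 and 0.00445 with the block.

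Receptors moved in both directions. Of 25 Toll-like receptors, adaptors and kinases, 4 were higher with the block (TLR2, CD14, TIRAP and IRAK3), against the background of 3.08%. With it 2 were lower (TLR7 and TLR8), against the background of 3.74%. Without set B these counts were 3 and 2 (background 1.87% and 2.15%), with IRAK3 lost (edgeR adjusted p = 0.0595). TLR2 had 307, 344 and 333 CPM with B. subtilis and 169.7, 245 and 214 CPM with E. faecium, and CD14 had 1462, 1504 and 1267 CPM against 576, 421 and 509.7 CPM. The groups did not overlap in either gene, with log2 differences of 0.65 ± 0.25 and 1.49 ± 0.46 (edgeR adjusted p 0.423 and 0.24 without and 0.0206 and 0.0217 with the block). NOD2 had 34.9, 54.8 and 47.4 CPM against 35.4, 27.1 and 67.2 CPM, a log2 difference of 0.08 ± 0.43 (adjusted p 1 and 0.927). CLEC7A, the beta-glucan receptor Dectin-1, was lower, with 44.2, 38.5 and 24.2 CPM against 81.8, 58.6 and 58.3 CPM (adjusted p = 0.00608 with the block). CSF1R, which binds CSF1 and IL-34 and keeps macrophages alive, had 197, 154 and 129 CPM with B. subtilis, 479, 392 and 399 CPM with E. faecium and 437, 295 and 446 CPM in control. The E. faecium libraries lay within or above the control range, the B. subtilis libraries below it, and the log2 difference of -1.40 ± 0.27 had an edgeR adjusted p of 0.051 without and 0.000531 with the block. CSF3R, the receptor of CSF3, was lower likewise, with 33.6, 21.1 and 33.1 CPM against 73.0, 48.5 and 110.3 CPM (adjusted p 0.214 and 0.00124).

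**Figure D3:**
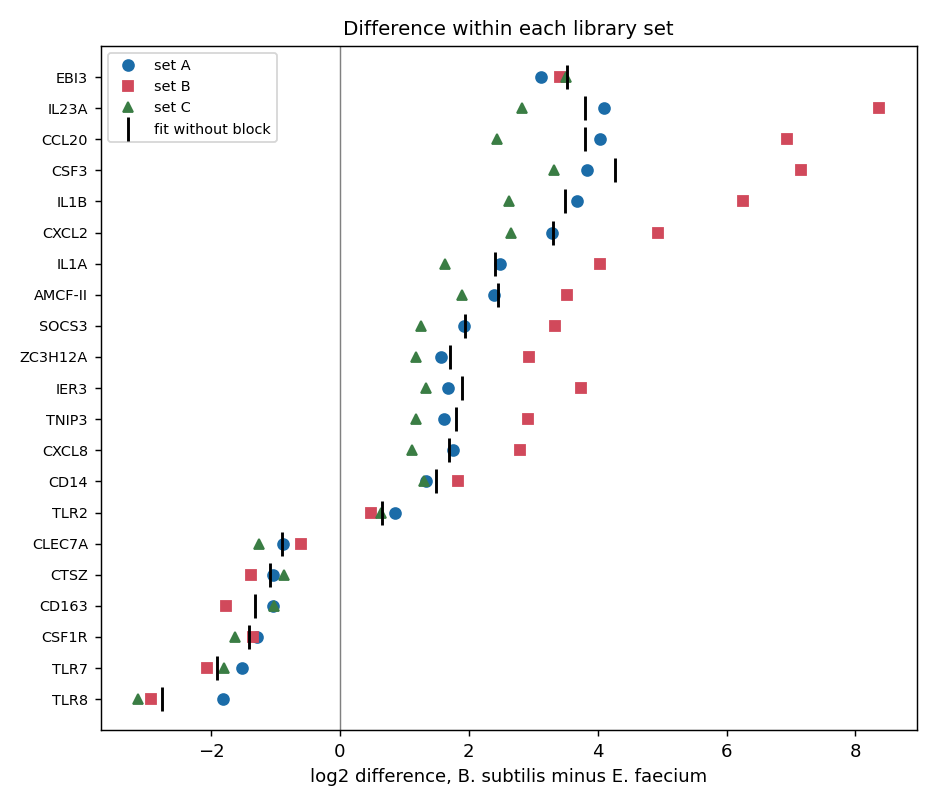
Log2 difference between B. subtilis and E. faecium within sets A (blue circles), B (red squares) and C (green triangles), from CPM with 0.5 added, and the log2 fold change of the fit without a block (black bars), for a choice of cytokines, chemokines, regulators, receptors and macrophage genes that passed with the set block. TNF, IL12B, CXCL10 and NOD2, which went both ways between sets, are not drawn. All points of each gene drawn lie on the same side of 0, and for IL23A the value of set B (8.37) exceeds those of sets A (4.10) and C (2.83).

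Antimicrobial and immunometabolic genes were higher at 8 of 24 members with the block (background 3.08%) and lower at 0 (background 3.74%). In the lower direction 3 had an unadjusted p under 0.05. The count was 5 higher and 1 lower without set B (background 1.87% and 2.15%), and DESeq2 and limma-voom called 0. Those 8 were the arginases ARG1 and ARG2, the tryptophan-degrading enzymes IDO1 and IDO2, the superoxide dismutase SOD2, and the calcium-binding alarmins S100A8, S100A9 and S100A12. ARG1 had 1017, 2491 and 1029 CPM with B. subtilis and 275, 552 and 441 CPM with E. faecium. S100A8 had 1721, 1401 and 1248 CPM against 531, 537 and 376 CPM, groups that did not overlap, with an edgeR adjusted p of 0.443 without and 0.0284 with the block. ACOD1, which makes itaconate, had 455, 539 and 507 CPM against 437, 122 and 618 CPM (adjusted p 0.644 with the block), and PTGS2, the inducible cyclooxygenase, 572, 1126 and 1022 CPM against 200.5, 165 and 926 CPM (adjusted p 0.205). In the matrix and tissue factor list 7 of 27 were higher with the block (background 3.08%) and 1 lower, a share near the background of 3.74%. Without set B these counts were 5 and 1 (background 1.87% and 2.15%). TIMP1, an inhibitor of matrix metalloproteinases, had 157, 68.8 and 317 CPM against 20.7, 12.4 and 46.2 CPM, and PLAUR, the urokinase receptor, had 441, 439 and 373 CPM against 208, 115 and 238 CPM. THBS1, thrombospondin 1, was the member that was lower. Of 24 genes of the amino acid and ATF4 response, 6 were higher with the block (background 3.08%), ATF3, CHAC1, ASNS, SESN2, SLC7A5 and AARS. With it 0 were lower (background 3.74%), and without set B 3 were higher and 1 lower (background 1.87% and 2.15%). ASNS, asparagine synthetase, had 68.0, 140.0 and 113 CPM against 31.9, 60.2 and 59.3 CPM. The metal transporter SLC39A14 had 539.8, 507 and 641 CPM against 126, 68.2 and 254 CPM, with an adjusted p of 0.0647 without and 0.00307 with the block.

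Several genes of resident macrophages were lower with the block. Of 38 alveolar macrophage genes 7 were lower with the block (background 3.74%) and 2 higher (MCEMP1 and TGFBR1, background 3.08%). The median log2 fold change was -0.18, and without set B 5 were lower and 2 higher (background 2.15% and 1.87%). The 7 were CSF1R, the scavenger receptors CD163, CD36 and MSR1, the transcription factor CEBPA, TGFBR2 and the lysosomal glycoprotein CD68. CD163, the receptor for haemoglobin with haptoglobin, had 162, 115 and 80.4 CPM with B. subtilis and 333, 395 and 164 CPM with E. faecium. The 2 groups nearly touched, at 162 and 164 CPM, and the log2 difference of -1.32 ± 0.47 had an edgeR adjusted p of 0.336 without and 0.00405 with the block. Of 36 lysosomal and phagocytic genes 5 were lower with the block (background 3.74%) and 0 higher (background 3.08%). In the higher direction 2 had an unadjusted p under 0.05, and without set B 4 were lower (background 2.15%). The 5 were the cathepsins CTSD, CTSL and CTSZ, the transcription factor MITF and CD68. CTSZ had 447, 307 and 352 CPM against 915, 802 and 640.5 CPM, and MITF 75.0, 53.7 and 58.1 CPM against 105, 106 and 112 CPM. In lipid handling 4 of 26 were lower with the block (ABCG1, CD36, FABP5 and CPT1A), against the background of 3.74%. HILPDA, a lipid droplet protein, was the 1 member that was higher, a share near the background of 3.08%. It had 156, 125 and 87.3 CPM against 50.6, 16.3 and 35.5 CPM. In the cell cycle list 1 of 40 was lower, against the background of 3.74%, the transcription factor E2F1, with 4.80, 4.69 and 10.6 CPM against 12.98, 15.5 and 20.5 CPM.

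Among interferon-stimulated genes, with the block 1 of 60 passed (STAT2, 704, 855 and 1052 CPM with B. subtilis against 340.0, 288 and 682 CPM with E. faecium), against the background of 3.08%, and the median log2 fold change was 0.23. Within sets A, B and C the median log2 difference of the 60 was 0.03, 0.76 and 0.03. Without set B 0 passed, against a background of 4.02% (STAT2 edgeR adjusted p = 0.0676). In all 3 sets 24 of the 60 were higher with B. subtilis and 0 lower, against 23.4% and 25.8% of all genes. MX1, an antiviral GTPase, had 316, 1062 and 858 CPM against 283, 611 and 752 CPM, and ISG15 had 255, 981 and 829 CPM against 336, 477 and 838 CPM, overlapping groups in both genes with edgeR adjusted p of 0.731 and 0.884 with the block. Of 23 MHC class I and antigen processing genes 0 passed with the block (1 at an unadjusted p under 0.05), of 26 glycolysis genes 0 (5), of 19 heat shock genes 0 (3), of 12 mitochondrially encoded genes 0 (0) and of 79 cytosolic ribosomal protein genes 0 (0). Over all genes 6.82% passed with the block, and 2735 of 13592 had an unadjusted p under 0.05. DESeq2 and limma-voom called 0 in each of these lists as well. CD86, a co-stimulatory ligand, was the 1 of 17 MHC class II and co-stimulation genes past the threshold, with 309, 374 and 325 CPM against 165, 184 and 246 CPM, against the background of 3.08%. It did not pass without set B (adjusted p = 0.109).

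The label of the cells was set against marker genes in the 6 libraries. Macrophage markers were present, with MRC1 at 252 to 571 CPM, SIGLEC1 at 111 to 237 and PPARG at 113 to 454, while FABP4 lay at 1.74 to 3.29 and CHIT1 at 0.0558 to 0.327 CPM. The neutrophil and mast cell markers MPO, MMP8 and CPA3 were at 0 in all 6, the T cell gene CD3E lay at 4.80 to 9.83 CPM, and SFTPC of alveolar epithelium at 0.488 CPM or less. Other members of these lists were present. CSF3R lay at 21.1 to 110.3 CPM and CXCR2 at 3.94 to 49.0 CPM in the neutrophil list, and JCHAIN at 382 to 1145 CPM and NKG7 at 195 to 476 CPM in the T, NK and B cell list, whose summed level was 789 to 1491 CPM with B. subtilis and 1021 to 1426 CPM with E. faecium. Of 17 tested markers of monocytes and dendritic cells, 6 were higher with the block (background 3.08%) and 0 lower (background 3.74%, 1 at an unadjusted p under 0.05). Their summed level was 6987 to 9421 CPM with B. subtilis, 2553 to 3733 with E. faecium and 1538 to 3961 in control. The 6 were CD14, S100A8, S100A9, S100A12, VCAN and BATF3, while CLEC9A and CLEC10A stayed at or under 0.0492 CPM. In all 3 sets 7 of the 17 were higher and 2 lower (FCN1 and ZBTB46), against 23.4% and 25.8% of all genes. FCN1 had 127, 31.5 and 90.1 CPM with B. subtilis against 193, 55.4 and 107 CPM with E. faecium, so the list did not move as one. In bulk RNA a change in the share of a cell type and a change of RNA per cell cannot be told apart, and the part of these cells in the results above was not tested. Of 10 tested epithelial markers, 1 was higher with the block (background 3.08%), EPCAM, at 133, 389 and 128 CPM against 36.3, 123 and 34.2 CPM. EPCAM made up most of a summed level of 136 to 395 CPM against 39.6 to 127. Of the T, NK and B cell markers NKG7 (1 of 27) and of the neutrophil and mast cell markers CSF3R (1 of 7) were lower. The background was 3.74%, and the share of 1 of 27 was near it. NKG7 did not pass with the block in edgeR without set B (adjusted p = 0.0789). Of 6 endothelial and fibroblast markers and 2 erythrocyte markers 0 passed, with 1 of each at an unadjusted p under 0.05 and 0 by DESeq2 or limma-voom. Over all genes 6.82% passed with the block, and 2735 of 13592 had an unadjusted p under 0.05.

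The mean of E. faecium lay between those of control and B. subtilis in most of the genes called. It was between them in 23 of the 24 genes (95.8%), in 794 of the 927 called with the block (85.7%) and in 60.4% of all genes. These means take in E. faecium library 2, which lay close to control. The order did not hold within every set, as for TLR7, TLR8 and LOC100525396 in set B. The comparisons with control share their control libraries, and each one's own counts follow. Against control, B. subtilis changed 604 genes without the block (4.44%) and 2504 with it (18.4%; 9.12% higher and 9.31% lower), and E. faecium 0 in both, with 278 and 732 at an unadjusted p under 0.05. For the E. faecium comparison DESeq2 called 38 genes and limma-voom 0, edgeR called 36 without E. faecium library 2, and the block without set B called 437. These last 2 counts leave out the library that lay close to control. For VDR the log2 change against control was 2.93 with B. subtilis (edgeR adjusted p = 0.000435) and 1.02 with E. faecium (adjusted p = 1). For CSF1R the 2 values were -1.29 (0.0129) and 0.11 (1), and for TLR8 they were -3.18 (0.001) and -0.42 (1).

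The bacteria were also compared with poly I:C added to both. The 24 genes were chosen for their difference without poly I:C, so a value nearer to 0 with it is no result about poly I:C. Of the 24 genes, 21 kept the direction (87.5%, against 55% of all genes), and 6 passed with the block (background 8.51%, with 5.91% higher and 2.6% lower), EBI3, BATF3, MCEMP1, GPR132, TLR7 and SULF2. Without the block edgeR called 0 of all genes in the pair with poly I:C, with 2245 at an unadjusted p under 0.05; DESeq2 called 595, limma-voom 0 and the block 1157. Without a block, leaving out B. subtilis with poly I:C library 2 gave 3335. With the block, leaving out set A, B or C gave 0, 5490 and 0. EBI3 differed by 1.96 ± 0.50 with poly I:C against 3.52 ± 0.54 without it, BATF3 by 2.01 ± 0.50 against 2.75 ± 0.51, and TLR7 by -1.41 ± 0.34 against -1.91 ± 0.35, all on the log2 scale. VDR differed by 0.00 ± 0.29 against 1.90 ± 0.30, SH2D1B by -0.70 ± 0.28 against 1.88 ± 0.29, and FAM105A by 0.28 ± 0.30 against -1.97 ± 0.29. The difference of the contrasts itself passed in edgeR without the block at 0 genes (1149 at an unadjusted p under 0.05), with 14 by DESeq2, 0 by limma-voom and 30 with the block (0.221%; 0.118% higher and 0.103% lower). The lowest adjusted p among the 24 was 0.135 without the block, for SH2D1B. With the block 6 of the 24 passed that test, SH2D1B (adjusted p = 0.00521), VDR (0.0251), FAM105A (0.0345), TYRO3 (0.0358), SULF2 (0.0399) and MAMLD1 (0.0481). That test contains the difference without poly I:C for which the 24 were chosen. The count of 6 is therefore raised by that choice and is no result about poly I:C. The counts of the difference without B. subtilis with poly I:C library 2, and with the block without set B, were 1371 and 3081.

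**Figure D4:**
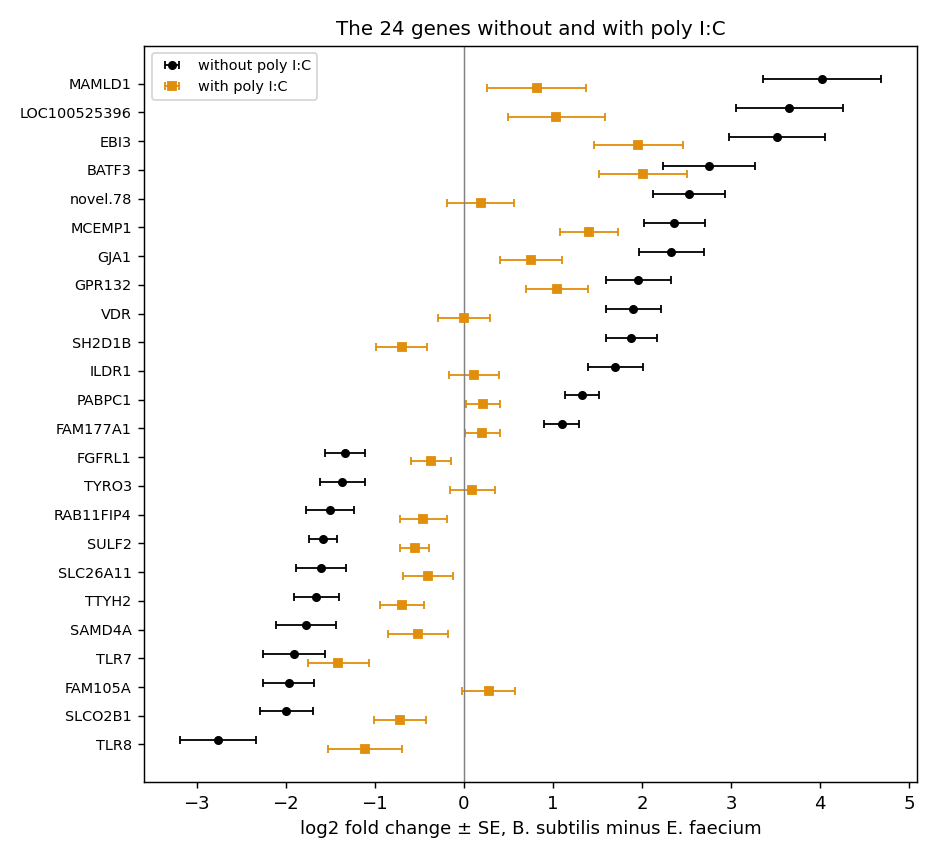
Log2 fold change ± SE between B. subtilis and E. faecium of the 24 genes, without poly I:C (black circles) and with poly I:C in both groups (orange squares), from the fit without a block with 3 libraries per group. VDR lies at 1.90 without and 0.00 with poly I:C, while BATF3 lies at 2.75 and 2.01.

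The 10 genes of lowest p with the set block, named after the data had been seen, included some whose level differed widely between sets. SYN1, which encodes a synapsin of vesicles, had 52.1, 10.4 and 50.9 CPM with B. subtilis and 11.2, 1.21 and 8.80 CPM with E. faecium, so that the groups overlapped across sets while each set differed in the same direction (edgeR adjusted p 0.336 without and 5.35e-05 with the block). COLEC12, a scavenger receptor, had 47.4, 20.8 and 17.2 CPM against 113, 57.6 and 44.8 CPM (adjusted p 0.443 and 0.000216). PIK3IP1, an inhibitor of PI3 kinase, had 15.2, 3.71 and 7.67 CPM against 55.8, 15.8 and 21.2 CPM (adjusted p 0.492 and 0.000381). IQGAP2, a scaffold of the cytoskeleton, had 7.71, 20.3 and 12.6 CPM against 25.1, 68.6 and 45.7 CPM (adjusted p 0.264 and 0.000531). In COLEC12, PIK3IP1 and IQGAP2 the B. subtilis library was the lower one in each set.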

How the data were processed

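The deposited table holds raw read counts per gene, which the authors made with genome build Sscrofa11.1 per the submitters' processing notes; these notes also name DESeq2. The aligner, counter, annotation release and strand setting are stated by no source used here. Of 30686 rows, 30335 matched RefSeq by gene ID and 351 had no symbol (0.515 to 1.04% of counts); 0 columns belonged to other series. Counts were tested in R 4.3.3 with edgeR 4.0.16 (quasi-likelihood, TMM, filterByExpr with a minimum count of 10, 13592 genes, 1 mean per treatment over 18 libraries, two-sided, Benjamini-Hochberg, adjusted p of 0.05). SE is the log2 fold change over the root of F. Alternatives were limma-voom 3.58.1, DESeq2 1.42.0, other scaling and filters, and a block. Library sets were the best of 7776 groupings of deviations from treatment means, found from the tested data, so p-values with that block may be too small. The replicate numbers were not used as pairs. The members, gene lists and tests were chosen with earlier results of these data known. The naming rule took up to 12 higher and 12 lower genes that passed without overlap and had a symbol not starting with LOC. Where fewer than 12 passed, genes of next lowest p filled the number. It also took up to 5 called members per list (otherwise 2 of lowest p) and 22 core genes. All genes that passed were named as well. After the data had been seen, list members called with the set block and the 10 genes of lowest p with it were added. The test was checked on simulated counts. Promoter and protein sequences were not analysed here, and 1 gene is not reported here.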

Additional observations from a re-analysis of the deposited data

Results flagged for a closer look

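In the 9 genes given here B. subtilis and E. faecium differed one way in all 3 sets without poly I:C and the opposite way in all 3 sets with it. The 9 were picked for this pattern, and the share of all genes that show it is not given here. The tests below use the same values that picked the 9. The difference of the contrasts (log2, without minus with poly I:C) was tested in edgeR without a block, and none of the 9 passed. It was 2.58 ± 0.40 for SH2D1B (adjusted p = 0.135), 2.54 ± 1.19 for SYN1 (0.579) and -1.59 ± 0.59 for E2F1 (0.579). With the set block these passed, at adjusted p of 0.00521, 0.00521 and 0.0114. The values of VCAN, IL23R, MX1 and NFE2L2 were 2.64, 1.29, 0.66 and 0.44, and those of CD83 and ALAS2 were -0.63 and -1.84, with adjusted p from 0.585 to 0.786 without the block, and none of them passed with it. Some within-set values lay close to 0, such as -0.05, -0.17 and -0.15 for SYN1 with poly I:C.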

How the results depend on the processing

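Against 24 genes between the bacteria, DESeq2 gave 276, limma-voom 52, the 6 libraries alone 0 and the set block 927; the set block without set A, B or C gave 87, 546 and 189, and on the 6 libraries alone 1468. Leaving out 1 library gave 1 to 88. For B. subtilis against control (604), DESeq2 gave 1151, the set block 2504, the set block without set A or B 1030 and 2660, and leaving out 1 library 196 to 445. For E. faecium against control (0), DESeq2 gave 38, the set block without set B 437, and leaving out 1 library 0 to 36. For the pair with poly I:C (0), DESeq2 gave 595, the set block 1157, the set block without set B 5490, and leaving out 1 library 0 to 3335. For the difference of the contrasts (0), these were 14, 30, 3081 and 0 to 1371. The replicate block by pig number gave 17 genes between the bacteria, 16 of them among the 24. Same-numbered libraries correlated at -0.137, -0.344 and 0.735. The numbers thus paired the libraries numbered 3 of the bacteria, but not those numbered 1 and 2. Other scaling and filters gave 23 to 29. Of 432 repeats over the 24 genes, 137 lost the threshold and none changed sign.

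Log2 differences that changed sign had not passed in the fit without a block. Leaving out 1 library gave -0.0771 to 0.84 for ACOD1, -0.0272 to 2.84 for CLEC4E, -0.58 to 0.49 for CXCL10, -0.89 to 0.24 for DNAJB4, -0.48 to 2.23 for HBB, -2.38 to 0.22 for IFNB1, -0.61 to 0.11 for IFNG, -4.82 to 1.44 for IL12B, -0.0217 to 0.76 for ISG15, -0.72 to 0.23 for ND1, -0.82 to 0.29 for ND2, -0.17 to 0.55 for NOD2 and -0.99 to 0.50 for PECAM1. With the set block without set B, ACOD1 was -0.15, ISG15 -0.14, NOD2 -0.28, PECAM1 0.042 and PRF1 -0.020. Without set A, CXCL10 was 0.10 and IFNG 0.22, and without set C, CXCL10 was 0.41, DNAJB4 0.20, IFNB1 0.19, ND1 0.21 and ND2 0.25. With limma-voom IFNG was 0.0335 and IL12B 0.082. The cause was not tested. CLEC4E passed with the set block and did not pass without it. Low counts limit MAMLD1, IL12B, IL19, IL20 and IFNB1. Promoter motifs were planned and not analysed here.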
